A study of Mus musculus with 4 samples.

Results

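Glucose enters heart muscle cells through transporters of the Slc2a family, is split by the enzymes of glycolysis into pyruvate, and is stored as glycogen, and 37 genes of these steps were examined in hearts of Klf9 knockout mice. Klf9 is a Krüppel-like zinc finger protein that regulates transcription. The 37 genes were chosen by name, with earlier results of these data known, and all were found in a table of 17485 genes. Total RNA of heart tissue was sequenced in 2 wild-type (WT) and 2 Klf9 knockout (Klf9 KO) libraries, all labelled male and from mice 8 weeks old. The labels name no strain, knockout allele or Cre driver, and do not tie the libraries to individual animals. The p-values therefore reflect the spread among 4 libraries, and that spread may be technical. The stated purpose of the study was the role of Klf9 in mitochondrial function of the heart, and the comparison made here is Klf9 KO over WT.

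The heart takes up glucose mainly through Slc2a4, which insulin and contraction bring to the cell surface, and to a lesser extent through Slc2a1. Most glycolytic steps have isoforms encoded by separate genes, some of them enriched in muscle (Pfkm, Pgam2, Eno3, Pygm) and others found in many tissues or in brain and liver. The adult heart draws most of its energy from fatty acids, whereas the fetal heart relies more on glucose and lactate. Glycogen is a local store of glucose, built by glycogenin, glycogen synthase and the branching enzyme and broken down by glycogen phosphorylase, which phosphorylase kinase switches on.

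The deposited table gives ratios between libraries, and an expression value per library was recovered from them in a unit that was not given, so that the sequencing depth is unknown. These values summed to between 409359 and 489534 per library. Klf9 stood at 74.9 and 58.8 in WT and at 2.66 and 1.99 in Klf9 KO (log2 fold change -4.35 ± 0.20, SE; limma adjusted p = 3.46e-06). Klf9 KO replicate 2 went against the male label, with the Y-linked Kdm5d at 0.01, Ddx3y at 0.01 and Uty at 0.58. In Klf9 KO replicate 1 these stood at 4.01, 7.82 and 3.57, and in WT at 3.42 to 3.97, 14.6 to 17.1 and 4.68 to 7.31. Counts are therefore also given without that library. Of 12135 tested genes, 27.7% were higher and 17.0% lower in Klf9 KO (adjusted p below 0.05, Benjamini-Hochberg, from limma fitted to log2 of value + 1). The log2 fold changes of tested genes had a median of 0.12. RLE scaling, which divides each library by its median ratio to the gene means, moved that median to -0.02 and gave 21.5% higher and 21.7% lower genes.

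In Klf9 KO hearts 3 of 4 tested glucose transporters and 6 of 9 glycogen genes were lower, as were 2 of 8 genes of upper glycolysis and 2 of 9 between the triose phosphates and lactate; no difference between these groups of genes was tested. Of the 37 genes, 34 were tested, and 15 of these (44.1%) were lower and 3 (8.82%) higher, beside the 17.0% and 27.7% of all tested genes. The other 16 did not pass, while 44.7% of all tested genes passed in either direction. After RLE scaling 17 of the genes were lower and 3 higher. The largest decreases were in Pfkfb1, Slc2a4, Phkg1, Ugp2 and Gbe1, and the increases were in Pygl, Eno1 and Pfkfb4. In 22 of the 34 genes both Klf9 KO libraries lay below both WT libraries, and in 5 they lay above, against 30.2% and 45.2% of all tested genes. The median log2 fold change of the 34 genes was -0.46, which is -0.58 relative to all tested genes, and 10% of all tested genes lay below -0.83. Without Klf9 KO replicate 2, 8 of the genes were lower and 2 higher, beside 9.06% and 15.3% of all tested genes. The 8 were Slc2a1, Slc2a4, Pfkfb1, Pfkfb2, Gbe1, Phka1, Phkg1 and Ugp2, and the 2 were Pygl and Pfkfb4, of which Pfkfb4 entered the test only through its Klf9 KO values and had to differ. Slc2a12, Gyg and Pygm were among those that no longer passed. With no filter on low values 11 of the 37 were lower, beside 10.3% of all genes, as Aldoa, Gyg, Pgam1 and Pygm did not pass. Slc2a3, Aldoc and Eno2 did not reach 1 in 2 or more libraries and were not tested.

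**Figure D1:**
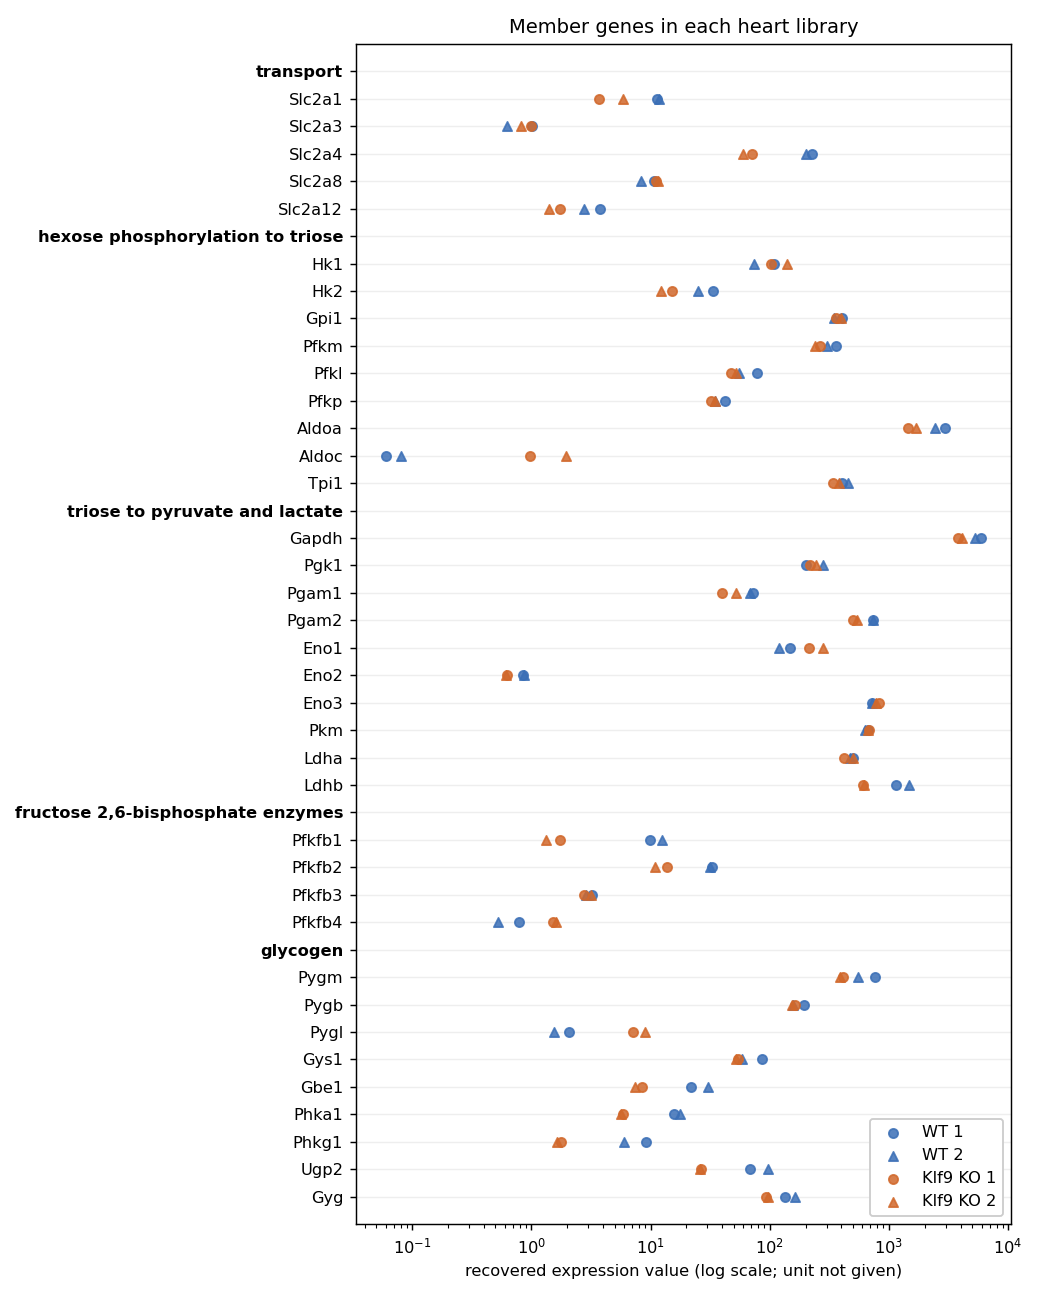
Recovered expression value of each of the 37 genes (horizontal axis, log scale, unit not given) in the 2 WT libraries (blue) and the 2 Klf9 KO libraries (orange), with circles for replicate 1 and triangles for replicate 2. Slc2a4 stands at 200.3 and 225 in WT and at 59.96 and 70.4 in Klf9 KO, while the points of Pkm, Gpi1 and Ldha overlap.

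**Figure D2:**
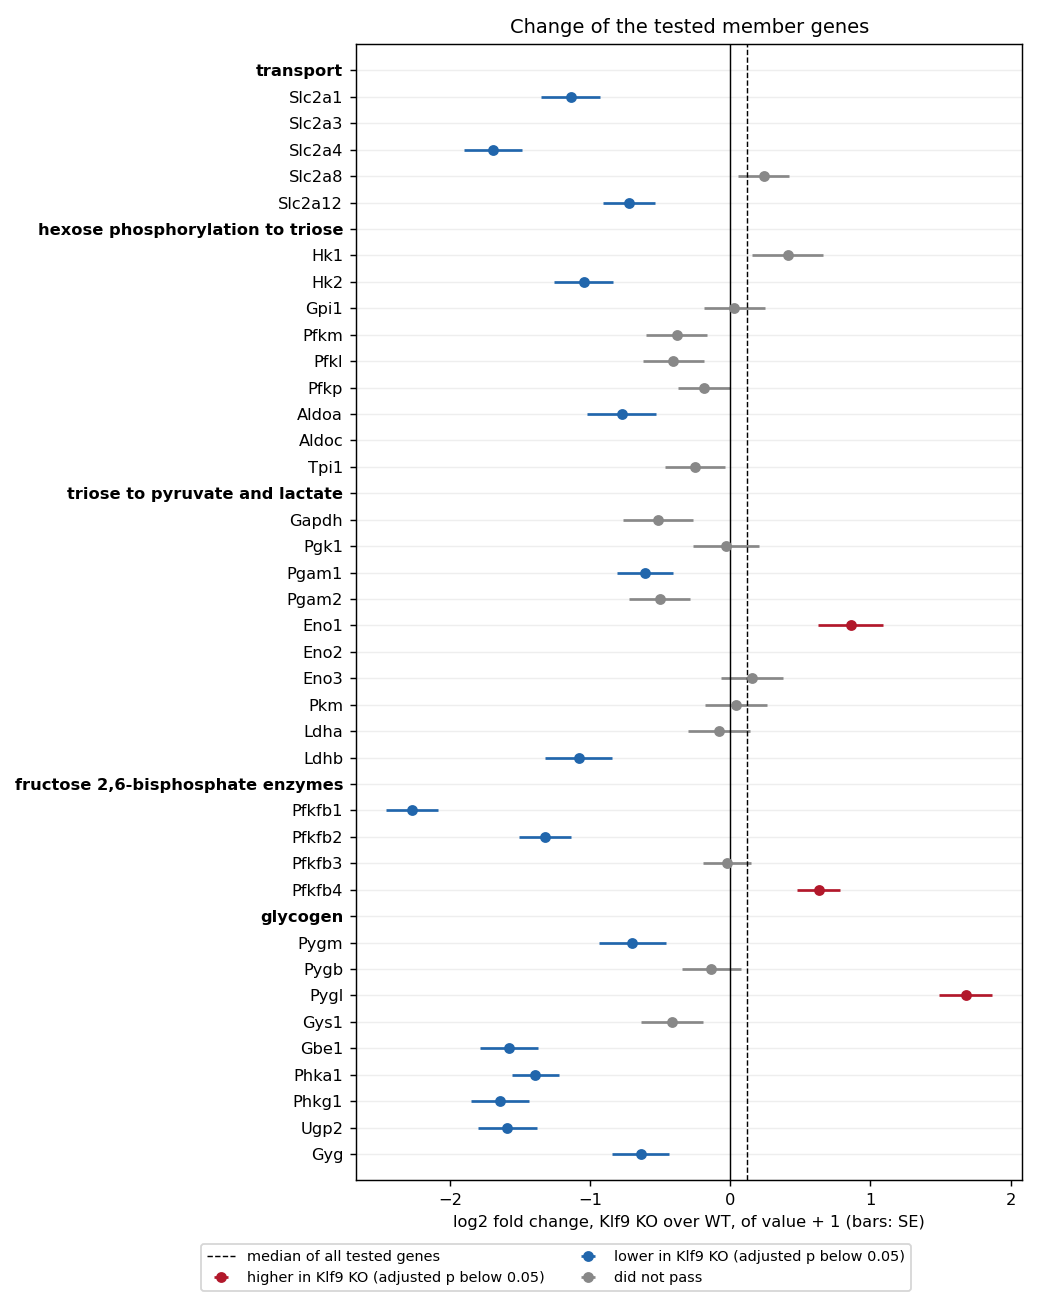
Log2 fold change of value + 1, Klf9 KO over WT (horizontal axis), with its SE (bars, n = 2 libraries per group) for the 34 tested genes, grouped by role. Blue points passed as lower (15), red points as higher (3), grey points did not pass, the dashed line is the median of all tested genes, and Slc2a3, Aldoc and Eno2 have no point.

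Of the 5 transporters 4 were tested, and 3 of these were lower in Klf9 KO hearts (75.0%) and 0 higher. Over all tested genes the shares were 17.0% and 27.7%. Slc2a4 (Entrez 20528), the insulin-responsive transporter of muscle and fat, had values of 225 and 200.3 in WT and 70.4 and 59.96 in Klf9 KO. Both Klf9 KO libraries lay far below both WT libraries, and the libraries of a group lay close together. The log2 fold change was -1.69 ± 0.20 (SE; limma adjusted p = 0.000304), and the 4 pairwise log2 ratios in the authors' deposited table ran from -1.91 to -1.51. Slc2a1 (Entrez 20525), the basal transporter of many cell types, stood at 11.3 and 11.8 in WT and at 3.69 and 5.88 in Klf9 KO (log2 fold change -1.14 ± 0.21; limma adjusted p = 0.00256). Its groups did not overlap, and Klf9 KO replicate 1 was the lowest. Slc2a12, another transporter found in muscle and fat, went from 3.77 and 2.79 to 1.75 and 1.42 (-0.72 ± 0.18; limma adjusted p = 0.0125), but did not pass without Klf9 KO replicate 2 (adjusted p = 0.125). Slc2a8, a transporter held mainly inside the cell, had 10.8 and 8.37 in WT and 11.2 and 11.5 in Klf9 KO and did not pass (0.24 ± 0.18; limma adjusted p = 0.319). Slc2a3, the transporter best known from neurons, was low in both groups, with 1.02 and 0.62 against 0.99 and 0.82.

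In the upper part of glycolysis, from glucose phosphorylation to the triose phosphates, 2 of 8 tested genes were lower (25.0%, near the 17.0% of all tested genes) and 0 higher. Hexokinases trap glucose in the cell by phosphorylating it, and the insulin-regulated Hk2 (Entrez 15277) had values of 33.7 and 25.2 in WT against 15.2 and 12.2 in Klf9 KO. Its groups were separate, and the log2 fold change was -1.05 ± 0.21 (limma adjusted p = 0.00391). Without Klf9 KO replicate 2 it did not pass (adjusted p = 0.0580). Hk1, the hexokinase of most tissues, stood at 108 and 74.4 in WT and at 103 and 139 in Klf9 KO, with overlapping groups (0.41 ± 0.25; limma adjusted p = 0.215). Aldoa (Entrez 11674), the muscle aldolase that splits fructose bisphosphate, went from 2959 and 2413 to 1445 and 1684. That is a log2 fold change of -0.78 ± 0.25 (limma adjusted p = 0.0320), and the call was lost without either Klf9 KO library. Aldoc, the aldolase of brain, was at 0.06 and 0.08 in WT and at 0.97 and 1.94 in Klf9 KO. It failed the filter on low values, and with no filter it was called higher (log2 fold change 1.17 ± 0.20 on the value + 1 scale; limma adjusted p = 0.0152), beside 18.4% of genes called higher in that fit.

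The phosphofructokinase isoforms, which catalyse the committed step of glycolysis, did not pass. Pfkm, the muscle isoform, had 358 and 302 in WT against 264 and 239 in Klf9 KO, and Pfkl, the liver isoform, had 78.0 and 55.4 against 47.1 and 51.8. In both genes the Klf9 KO libraries were the lower ones, by log2 fold changes of -0.38 ± 0.22 and -0.41 ± 0.22. Pfkp, the platelet isoform, had 42.1 and 34.98 against 32.3 and 34.8 (-0.19 ± 0.19). For Pfkp the group log2 ratio in the authors' deposited table was 0.18, although the 4 pairwise ratios of the same table ran from -0.38 to -0.01. The isomerases Gpi1 (0.03 ± 0.22) and Tpi1 (-0.25 ± 0.22) did not pass either, and the sign of Gpi1 was negative after RLE scaling (-0.13) and upper quartile scaling (-0.03).

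Pfkfb enzymes make and degrade fructose 2,6-bisphosphate, the signal that drives phosphofructokinase. Of the 4 genes 2 were lower (50%) and 1 higher (25%), beside 17.0% and 27.7% of all tested genes. Pfkfb1 (Entrez 18639), first known from liver and skeletal muscle, had values of 9.99 and 12.5 in WT and 1.73 and 1.34 in Klf9 KO. Its WT mean was 7.33-fold its Klf9 KO mean, the widest separation among the tested decreases. The log2 fold change was -2.27 ± 0.19 (limma adjusted p = 4.2e-05), and -2.88 from the ratios alone with no pseudocount. Pfkfb2 (Entrez 18640), the heart isoform that insulin and adrenergic signals activate, went from 33.0 and 31.4 to 13.8 and 10.9 (-1.32 ± 0.19; limma adjusted p = 0.000672). Pfkfb4 (Entrez 270198) went from 0.79 and 0.53 to 1.52 and 1.60 (0.63 ± 0.16; limma adjusted p = 0.0107). It passed the filter on low values only through the Klf9 KO libraries, so it had to differ. Pfkfb3, the inducible isoform of growing and hypoxic cells, had 3.20 and 2.88 against 2.77 and 3.18, with overlapping groups and a log2 fold change of -0.02 ± 0.17.

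Between the triose phosphates and lactate, 2 of 9 tested genes were lower (22.2%, near the 17.0% of all tested genes) and 1 higher (11.1%, beside 27.7%). Ldhb (Entrez 16832), the lactate dehydrogenase subunit typical of heart, had 1143 and 1476 in WT and 605 and 622 in Klf9 KO. Both Klf9 KO libraries lay below both WT libraries, by a log2 fold change of -1.08 ± 0.24 (limma adjusted p = 0.00639), and the call was lost without either Klf9 KO library (adjusted p = 0.0988 without replicate 2). Ldha, the subunit typical of skeletal muscle, overlapped between groups, with 499.98 and 470 against 420 and 498 (-0.08 ± 0.22). Pgam1, the widely expressed phosphoglycerate mutase, went from 72.6 and 68.6 to 40.1 and 52.6 (-0.61 ± 0.20; limma adjusted p = 0.0363). That call was lost without either Klf9 KO library. Its muscle counterpart Pgam2 had 732 and 740 against 499 and 538 (-0.50 ± 0.22; limma adjusted p = 0.0897), and it passed after RLE scaling (adjusted p = 0.0292).

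Eno1 (Entrez 13806), the enolase of most tissues, rose from 148 and 120 in WT to 212 and 278 in Klf9 KO (0.86 ± 0.23; limma adjusted p = 0.0156). Its groups did not overlap, but it did not pass without either Klf9 KO library (log2 fold change 0.66, adjusted p = 0.275 without replicate 2). The muscle enolase Eno3 had 722 and 726 against 833 and 778 and did not pass (0.15 ± 0.22; limma adjusted p = 0.603). Eno2, the enolase of neurons, was low throughout, with 0.86 and 0.87 against 0.63 and 0.61. Gapdh, often taken as a reference gene, stood at 5946 and 5293 in WT and at 3768 and 4093 in Klf9 KO. Both Klf9 KO libraries lay below both WT libraries; the log2 fold change of -0.51 ± 0.25 did not pass (limma adjusted p = 0.124), and after RLE scaling it did (-0.67; adjusted p = 0.0436). Pyruvate kinase (Pkm) and phosphoglycerate kinase (Pgk1) overlapped between groups, with log2 fold changes of 0.04 ± 0.22 and -0.03 ± 0.23. RLE scaling turned Pkm to -0.11.

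Genes of glycogen handling were lower in 6 of 9 cases (66.7%) and higher in 1 (11.1%), beside 17.0% and 27.7% of all tested genes. Ugp2 (Entrez 216558), which makes the UDP-glucose used as the building block, had values of 68.5 and 96.0 in WT and 26.5 and 25.99 in Klf9 KO. The branching enzyme Gbe1 (Entrez 74185) had 21.7 and 30.2 against 8.49 and 7.35. In both genes the Klf9 KO libraries lay under both WT libraries, and they nearly coincided for Ugp2, with log2 fold changes of -1.59 ± 0.21 and -1.58 ± 0.21 (limma adjusted p = 0.000478 and 0.000438). Gyg, glycogenin, the protein primer of the particle, went from 135 and 162 to 92.2 and 97.3 (-0.64 ± 0.20; limma adjusted p = 0.0316), a call lost without either Klf9 KO library. Gys1, the muscle glycogen synthase, had 85.9 and 58.8 against 54.0 and 52.0 and did not pass (-0.42 ± 0.22; limma adjusted p = 0.158).

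On the side of glycogen breakdown, both listed subunits of phosphorylase kinase and the muscle phosphorylase fell, and the liver phosphorylase rose. Phkg1 (Entrez 18682), the catalytic subunit of muscle, had 9.12 and 6.05 in WT and 1.77 and 1.64 in Klf9 KO (-1.64 ± 0.21; limma adjusted p = 0.00037). Phka1 (Entrez 18679), the regulatory alpha subunit of muscle, had 15.9 and 17.6 against 5.89 and 5.63 (-1.39 ± 0.17; limma adjusted p = 0.000306). Neither gene had a Klf9 KO library near the WT range. Pygm (Entrez 19309), the muscle phosphorylase, went from 758 and 555 to 413 and 386 (-0.70 ± 0.24; limma adjusted p = 0.0415), and the call was lost without either Klf9 KO library. The brain form Pygb, which the heart also expresses, had 194 and 157 against 163 and 155, with overlapping groups (-0.14 ± 0.21). Pygl (Entrez 110095), the liver form, rose from 2.09 and 1.55 to 7.13 and 8.93 (1.68 ± 0.19; limma adjusted p = 0.000213), and its Klf9 KO mean was 4.41-fold its WT mean.

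Sequence upstream of the start is shown for the 2 largest increases (Pygl, Pfkfb4) and the 2 largest decreases (Phkg1, Gbe1) among called genes with a single annotated start, so that the window is unambiguous. Klf9 and its relatives are known to bind GC boxes and CACCC boxes. The 250 bases before the start were taken from RefSeq (GRCm38.p6), chr12:70227684-70227933 on the minus strand for Pygl, chr9:108991652-108991901 on the plus strand for Pfkfb4, chr5:129879089-129879338 on the minus strand for Phkg1 and chr16:70313699-70313948 on the plus strand for Gbe1. Capitals mark GGGCGG and CACCC on either strand, which can overlap.
Pygl: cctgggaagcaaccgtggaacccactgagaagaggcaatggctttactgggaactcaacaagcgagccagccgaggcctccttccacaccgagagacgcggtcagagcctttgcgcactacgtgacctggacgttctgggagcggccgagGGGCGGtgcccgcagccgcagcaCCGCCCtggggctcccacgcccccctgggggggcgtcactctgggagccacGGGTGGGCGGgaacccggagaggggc
Pfkfb4: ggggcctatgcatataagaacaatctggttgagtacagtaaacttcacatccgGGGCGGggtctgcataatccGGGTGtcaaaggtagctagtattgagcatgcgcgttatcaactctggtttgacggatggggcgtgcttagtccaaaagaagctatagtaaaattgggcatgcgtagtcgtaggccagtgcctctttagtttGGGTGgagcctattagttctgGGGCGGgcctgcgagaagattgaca
Phkg1: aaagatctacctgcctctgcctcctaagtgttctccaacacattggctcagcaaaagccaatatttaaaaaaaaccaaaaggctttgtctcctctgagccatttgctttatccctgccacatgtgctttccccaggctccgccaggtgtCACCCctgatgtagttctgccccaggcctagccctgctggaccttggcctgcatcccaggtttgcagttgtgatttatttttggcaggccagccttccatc
Gbe1: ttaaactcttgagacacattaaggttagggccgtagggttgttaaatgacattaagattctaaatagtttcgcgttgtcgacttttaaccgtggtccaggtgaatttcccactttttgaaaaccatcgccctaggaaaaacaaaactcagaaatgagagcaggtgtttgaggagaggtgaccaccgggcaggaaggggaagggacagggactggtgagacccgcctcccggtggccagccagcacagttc
The Pygl window held 3 GC boxes and 1 CACCC box, and that of Pfkfb4 held 2 of each. The Phkg1 window held 0 GC boxes and 1 CACCC box, and the Gbe1 window 0 of both. Windows were found for 35 of the 37 genes. Among these, GGGCGG stood in at least 1 window of 3 of 3 higher, 8 of 14 lower and 8 of 16 genes that did not pass, against 35.4% of all 27025 genes. CACCC stood in 3 of 3, 9 of 14 and 12 of 16, against 54.5% of all genes. A match describes these letters only, and binding was not measured.

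Ratios of 2 genes within a library cancel its scaling, apart from the pseudocount, and 11 pairs were compared. In 9 of them the groups did not overlap, and in 7 of these the difference between groups was larger than the widest gap between 2 libraries of a group. Separate groups were common in these data. Of all tested genes, taken singly, 45.2% had both Klf9 KO libraries above both WT libraries and 30.2% below. The share among other pairs of genes was not computed. With 2 libraries against 2, the exact permutation test (two-sided) cannot go below p = 0.333, so that none could pass; the differences are given as a description. The log2 ratio of Hk2 to Hk1 was -1.65 and -1.53 in WT and -2.68 and -3.41 in Klf9 KO, lower by 1.46 in the means (KO minus WT, -1.46). Ldhb to Ldha went from 1.19 and 1.65 to 0.53 and 0.32 (-0.998), with the ratio nearest to even in Klf9 KO replicate 2. Pfkfb2 to Pfkfb3 went from 3.02 and 3.06 to 1.97 and 1.51 (-1.30). In each of these 3 pairs both Klf9 KO libraries lay below both WT libraries.

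Among muscle isoforms the ratios did not all move alike. Pygm to Pygb changed by -0.56 (1.96 and 1.81 against 1.34 and 1.32) and Pygm to Pygl by -2.38 (7.94 and 7.77 against 5.67 and 5.29). Eno3 to Eno1 changed by -0.71, from 2.28 and 2.59 to 1.97 and 1.48, where Eno1 is the member that was called. By contrast, the groups overlapped for Pfkm to Pfkl (0.02) and for Pgam2 to Pgam1 (0.10). Pfkm to Pfkp changed by -0.19, less than the gap of 0.24 between the Klf9 KO libraries. The Slc2a4 to Slc2a1 ratio changed by -0.55, within the gap of 0.78 between the Klf9 KO libraries, and without the pseudocount the groups overlapped, at 20.0 and 17.0 in WT and 19.1 and 10.2 in Klf9 KO. Aldoa to Aldoc changed by -1.95 with a pseudocount of 1 and by -3.90 with one of 0.1, since Aldoc was near the smallest step in WT.

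**Figure D3:**
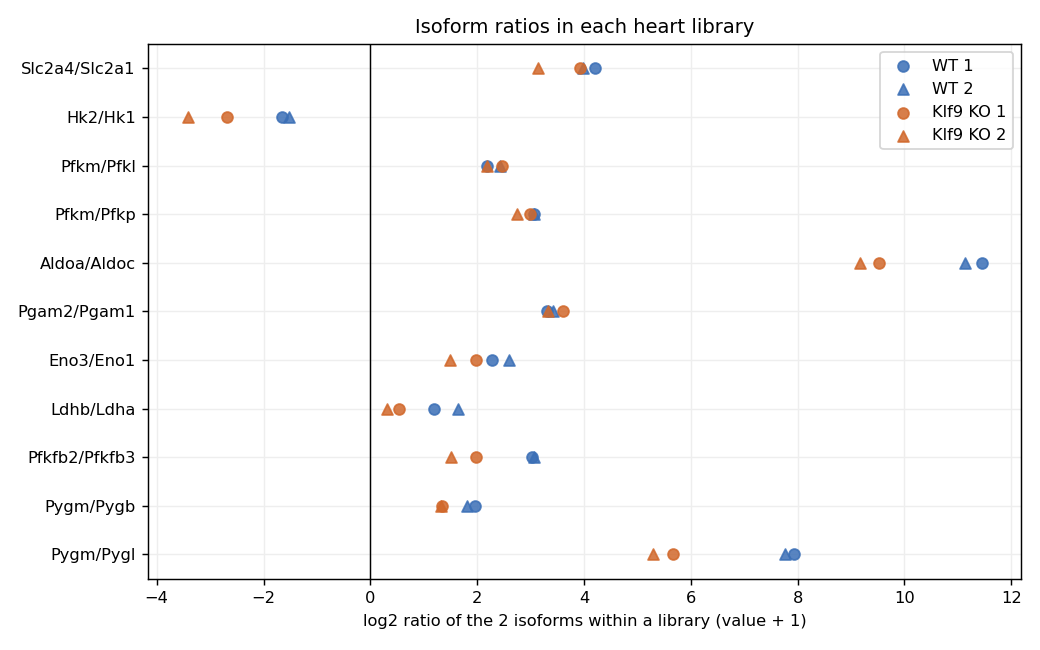
Log2 ratio of 2 isoforms (value + 1) within each library (horizontal axis) for 11 pairs, with WT in blue, Klf9 KO in orange, circles for replicate 1 and triangles for replicate 2. The Hk2/Hk1, Ldhb/Ldha, Pfkfb2/Pfkfb3, Pygm/Pygb and Pygm/Pygl ratios are lower in both Klf9 KO libraries, and those of Pfkm/Pfkl and Pgam2/Pgam1 overlap.

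Other genes of the same pathways were read from 5 further lists, in which 69 of 75 genes were tested, 24 were lower (34.8%) and 12 higher (17.4%), beside 17.0% and 27.7% of all tested genes. Of 7 other glycolytic enzymes 4 were lower (57.1%) and 0 higher. Of 16 other glycogen genes 5 were lower (31.25%) and 3 higher (18.75%). Ppp1r3a, which targets protein phosphatase to muscle glycogen, had 18.6 and 38.0 against 6.13 and 4.07 (-2.20 ± 0.31), and Nhlrc1, the ubiquitin ligase malin, changed by -0.88 ± 0.16. Phka2, the liver counterpart of Phka1, rose from 7.44 and 7.22 to 17.5 and 18.5 (1.19 ± 0.17), and Stbd1, which tethers glycogen to membranes, from 7.27 and 8.96 to 21.5 and 21.4.

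Genes of pyruvate and lactate fate, which include kinases and phosphatases of pyruvate dehydrogenase, were lower in 9 of 13 cases (69.2%). They were higher in 2 cases (15.4%), beside the same 17.0% and 27.7%. Pyruvate carboxylase (Pcx) went from 11.9 and 9.66 to 1.34 and 1.42 (-2.30 ± 0.18) and the pyruvate dehydrogenase phosphatase Pdp2 from 9.68 and 8.63 to 1.69 and 1.45. The pyruvate dehydrogenase kinase Pdk3 rose from 1.29 and 1.46 to 8.97 and 10.9 (2.20 ± 0.18), and the lactate exporter Slc16a3 from 1.80 and 1.67 to 2.71 and 3.94. By contrast, Pdk4 (197 and 151 against 98.9 and 89.1) and Pdk1 (-0.79 ± 0.18) were lower. Slc16a1 was lower too (48.8 and 66.4 against 39.2 and 35.2), and Pdk2 did not pass (-0.40 ± 0.23). Without Klf9 KO replicate 2 the log2 fold changes of Pdk4, Pdk1 and Slc16a1 were -0.80, -0.78 and -0.53, and these genes no longer passed. Among 16 regulators of glucose uptake 5 were higher (31.25%) and 2 lower (12.5%), close to the 27.7% and 17.0% of all tested genes. Irs2, an adaptor of the insulin receptor, had 2.76 and 1.5 in WT and 26.5 and 29.1 in Klf9 KO (3.23 ± 0.22; limma adjusted p = 1.65e-05), and Tbc1d1, a brake on Slc2a4 traffic, rose by 1.14 ± 0.18. Its relative Tbc1d4 changed by -0.65 ± 0.20 and the glucose-sensing factor Mlxipl by -0.68 ± 0.18, both lower. In side branches of the pathway 4 of 17 genes were lower, or 23.5%, near the 17.0% of all tested genes. Among them were Khk and Akr1b3 (-1.02 ± 0.17 and -0.94 ± 0.21). In the same list 2 were higher (11.8%, beside 27.7%), Tkt and Pck2 (1.10 ± 0.20 and 1.10 ± 0.18). List medians relative to all tested genes were -1.19 for other glycolytic enzymes, -0.20 for other glycogen genes, 0.03 for uptake regulators, -0.91 for pyruvate and lactate fate and -0.28 for side branches. Leaving out Klf9 KO replicate 1 left 13 of these genes lower, and leaving out Klf9 KO replicate 2 left 12. Tbc1d4, Mlxipl, Slc16a3 and Akr1b3 did not pass without Klf9 KO replicate 2 either.

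**Figure D4:**
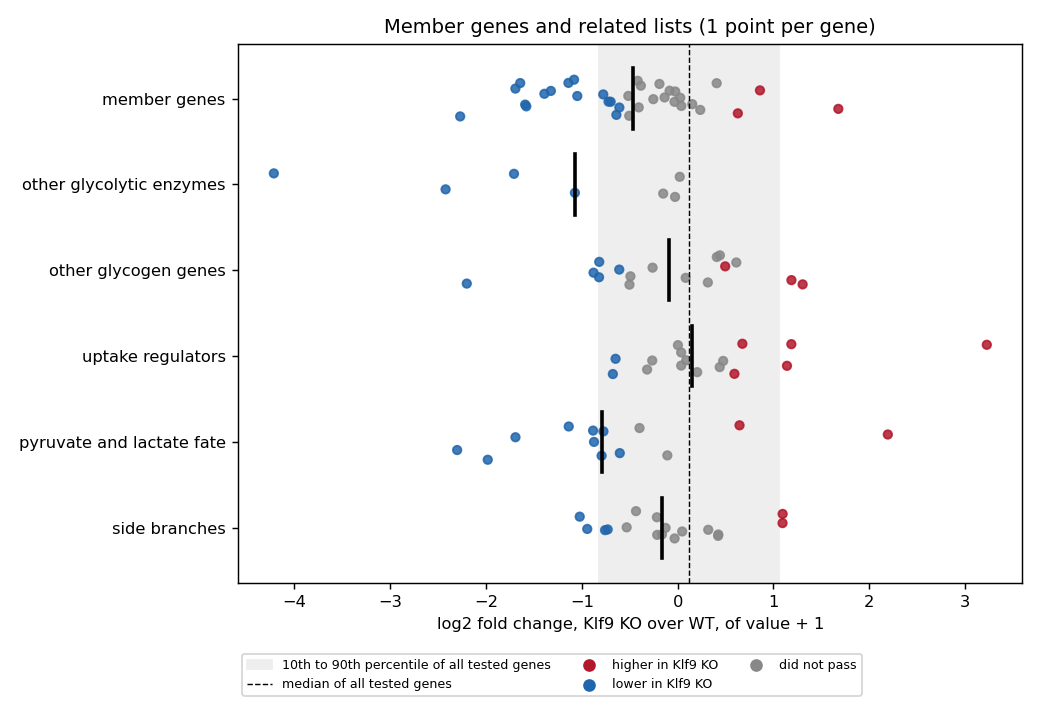
Log2 fold change of value + 1, Klf9 KO over WT (horizontal axis), of each tested gene among the 37 (top row) and in 5 related lists, blue for lower, red for higher and grey for not passed, with the list median as a black bar, the median of all tested genes as a dashed line and their 10th to 90th percentile (-0.83 to 1.06) in grey. Other glycolytic enzymes and genes of pyruvate and lactate fate lie mostly to the left, and uptake regulators around the median of all genes.

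Markers of heart stage and of other cell types differed between the groups as well. The fetal troponin Tnni1 was at 0.16 and 0.01 in WT and at 656 and 994 in Klf9 KO, while the adult Tnni3 had 3783 and 5102 against 2625 and 2672. Of the myosins, the fetal Myh7 rose from 49.2 and 32.4 to 93.0 and 219 (limma adjusted p = 0.00451), and the adult Myh6 had 7101 and 4788 against 8725 and 7138, with both Klf9 KO libraries above WT, and did not pass (adjusted p = 0.25). All 5 proliferation genes were higher, of which Ccnb1, Cdk1 and Aurkb passed the filter only through Klf9 KO and had to differ. Their values summed to 3.39 and 4.87 in WT against 59.4 and 82.2 in Klf9 KO. Of 6 macrophage markers 5 were lower (sums of 128 and 172 against 43.3 and 42.7). Of 6 fibroblast markers 3 were higher and 1 lower (sums of 380 and 538 against 806 and 885). Of 4 tested red cell markers 1 was higher. Beside these counts, 17.0% of all tested genes were lower and 27.7% higher. The 8 cardiomyocyte markers summed to 31972 and 37450 against 38564 and 36627, with 1 lower (Tnni3) and 0 higher. Skeletal muscle markers summed to 0.45 to 1.67 in every library and the fast myosins Myh1, Myh2 and Myh4 were at 0.04 or less, near the smallest step in both groups. Fewer cells of a type and less RNA per cell cannot be told apart in heart tissue, and the part of stage, cell makeup or sex in the changes above was not tested. Esr1, at 3326 and 2726 in WT against 0.09 and 0.03, marks a further difference between the groups that the labels do not describe.

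In the authors' deposited table, 11 of the 37 genes were lower and 3 higher at a q-value below 0.001 and an absolute group log2 ratio of at least 1, beside 8.77% and 14.3% of its 16254 genes with a q-value. All 11 were also lower with limma, and of the 3 higher genes Pygl and Pfkfb4 were higher with limma while Aldoc was not tested. At that q-value without the ratio, 11 further tested genes passed in the authors' deposited table and did not pass with limma, where the spread between libraries is the error.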

How the data were processed

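Total RNA of mouse heart tissue was measured in 2 WT and 2 Klf9 KO libraries, grouped by title. The authors deposited a single table of log2 ratios for each of the 4 pairs of libraries and for the groups, with p-values under a Poisson model and, for the groups, p-values and q-values from DEGseq, per the file headers. A column of false discovery rates for pairs (not used) exceeds 1. The aligner, the counter, the build and the unit are not given in the sources used here. Depth is unknown too, and with it the precision of single values.

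The 4 library values of each gene were recovered from the deposited log2 ratios, which were additive to within 9.9e-14 in the 16152 genes that have all of them, as the smallest whole numbers that give them, read as steps of 0.01. Missing ratios (1333 genes) were read as pairs at the smallest step, which can stand for 0. All 17485 genes were resolved. A factor shared by all 4 values is lost, expected for 7.61% of genes, and makes a gene's level too low but not its ratios.

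The planned test for counts could not be used, since there are none. The planned fallback was limma 3.58.1 in R 4.3.3 (trend, robust) on log2(value + 1), with group as the only term. It was fitted to 12135 genes with at least 1 in at least 2 libraries, with Benjamini-Hochberg over all of them. On simulated data with 200 genes changed, this fit called 51% of 2-fold and 99% of 4-fold changes, with 8 false calls. Fold changes of value + 1 understate low genes. Isoform ratios were compared with an exact permutation test (scipy 1.17.1). The genes, lists and pairs were chosen with earlier results of these data known. By the rule for named genes, every one of the 37 is accounted for. In each further list the rule names up to 2 called genes per direction with the lowest p, and Pdk1, Pdk2, Pdk4 and Slc16a1 are named besides. Some genes that this rule names are not reported here. Of the listed genes 4 were not analysed here. The 12 alternatives were other scalings, filters, pseudocount, variance moderation, a replicate block, each library left out, and ratios without a pseudocount. Python 3.11.15, numpy 2.4.6, pandas 2.3.3 and matplotlib 3.10.9 were used.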

Additional observations from a re-analysis of the deposited data

How the results depend on the processing

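Of the 15 lower genes, 8 kept their direction and call under all 12 alternatives: Slc2a1, Slc2a4, Pfkfb1, Pfkfb2, Gbe1, Phka1, Phkg1 and Ugp2. Pygl did too. With each library left out in turn, lower genes among the 37 numbered 8 to 20 and higher genes 2 to 5, and lower genes of the related lists 12 to 31. Over all genes these ranges were 1859 to 4327 higher and 1100 to 3261 lower. The cause was not tested. A lone library is assumed there to vary like the other group. Scaling, pseudocount, moderation and filter gave 11 to 17 lower and 2 to 4 higher genes. With a replicate block the counts stayed at 15 lower and 3 higher. Replicate differences of the groups correlated at -0.0355 over genes. That gave no sign that the replicate numbers pair the libraries, but it cannot exclude pairing. RLE scaling gave 2610 higher and 2633 lower genes in all, against 3367 and 2061.

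Signs turned only in genes that did not pass. After RLE scaling Gpi1 was at -0.13 and Pkm at -0.11, and after upper quartile scaling at -0.0285 and -0.0173. With libraries left out in turn, Gpi1 ran from -0.0834 to 0.14, Pgk1 from -0.26 to 0.20, Pkm from -0.0083 to 0.0868, Ldha from -0.21 to 0.0401, Pfkfb3 from -0.0987 to 0.0503 and Pygb from -0.29 to 0.0139. The depth behind the values is unknown, which limits what can be said of values near 0.01.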
